A study of Mus musculus with 10 samples.

Results

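Csrp3, Calhm6, Car2, Pecam1, Ermap, Cd2 and Fgl2 are 7 genes known mainly from muscle, red cells, endothelium, T cells and myeloid cells. They were chosen by their strong rise in cultured Irf4-/- B cells, as genes outside the classic B cell programme. Every single-gene probe set for these symbols was taken, with Fam26f as the older name of Calhm6. This gave 8 of the 45101 probe sets on the array, 2 of them for Fgl2, and 7 of 12253 genes tested. The signals that selected the genes are the ones described here, so their difference between genotypes is given as a description, with no test. No numerical threshold was set for the choice.

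The arrays came from splenic B cells of 12-week-old C57BL/6 littermates, 5 samples with intact Irf4 (Irf4+/+) and 5 with both copies disrupted (Irf4-/-). Non-B cells had been depleted magnetically, and all 10 samples were cultured for 3 days with an antibody to CD40 and IL-4 at 20 ng/ml. The loss of Irf4 was germline, so it preceded the culture and was present in every cell of the donor mouse. Whether the 5 samples per genotype were separate mice or separate cultures is not in the labels. Every p-value therefore measures only how far these 10 samples scatter, and that scatter may be technical.

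The protein made from Irf4 is one of the interferon regulatory factors, and lymphocytes induce it on activation. It binds DNA weakly alone and pairs with ETS factors such as PU.1 at composite elements or with AP-1 factors. It can also bind the interferon-stimulated response elements that other family members use to switch on interferon-inducible genes. Stimulation through CD40 and the IL-4 receptor drives B cells to divide and to switch antibody class. In mature B cells Irf4 is known for its roles in class switching and plasma cell formation.

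The promoters are shown first because 2 of them hold letters that match a motif of interferon or cytokine signalling. RefSeq promoter windows (assembly GRCm38.p6) were at hand for Csrp3, Calhm6, Ermap and Fgl2, with 2 starts for Csrp3. Each line gives the 250 bases before the annotated start, 5′ to 3′ along the gene. The Calhm6 window lies at chr10:34127973-34128222 on the minus strand, the Fgl2 window at chr5:21372423-21372672 on the plus strand and the first Csrp3 window at chr7:48848052-48848301 on the minus strand. Capitals mark matches to the interferon-stimulated response element core, the ETS-IRF composite element, the STAT sites or the AGATAA form of the GATA site. Csrp3 is shown as the gene with the highest Irf4-/- signal of the 7, and its window holds no such match.
Calhm6: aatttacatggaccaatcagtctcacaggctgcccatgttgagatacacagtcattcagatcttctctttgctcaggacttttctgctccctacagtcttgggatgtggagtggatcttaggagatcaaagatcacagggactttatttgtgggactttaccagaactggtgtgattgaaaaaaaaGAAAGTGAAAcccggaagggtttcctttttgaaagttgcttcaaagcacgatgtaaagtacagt
Fgl2: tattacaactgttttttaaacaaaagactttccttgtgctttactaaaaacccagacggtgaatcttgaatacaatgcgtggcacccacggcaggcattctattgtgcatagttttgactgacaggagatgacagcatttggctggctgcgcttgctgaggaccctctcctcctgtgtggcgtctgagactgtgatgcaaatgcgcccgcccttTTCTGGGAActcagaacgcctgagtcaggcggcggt
Csrp3 (first start): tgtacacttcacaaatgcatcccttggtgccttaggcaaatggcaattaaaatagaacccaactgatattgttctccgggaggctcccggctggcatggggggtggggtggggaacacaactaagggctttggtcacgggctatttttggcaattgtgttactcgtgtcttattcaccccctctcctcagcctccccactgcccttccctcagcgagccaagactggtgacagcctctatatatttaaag

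Each motif was searched on both strands of these 250 bases in all 32851 RefSeq windows. The interferon-stimulated response element core, GAAANNGAAA, was in 2.98% of windows. It matched Calhm6 once, as GAAAGTGAAA, 64 to 55 bases before the start. The ETS-IRF composite element, GGAANNGAAA, was in 2.30% of windows and in none of the 5 windows of these genes. These motifs share most letters but cannot match the same bases on the same strand. The STAT site with 3 spacer bases, TTCNNNGAA, was in 7.02% of windows and matched Fgl2 once, as TTCTGGGAA, 36 to 28 bases before the start. The form with 4 spacer bases, TTCNNNNGAA, was in 5.85% of windows and in none of the 5. Its letters read the same on both strands, as do those of the shorter form. The form AGATAA of the erythroid GATA site was in 9.99% of windows and likewise in none of the 5, the Ermap window among them. Other forms of the GATA site were not searched, so the windows may hold those. A loose NF-kB pattern, GGGNNNNNCC, was in 45.8% of windows and in those of Ermap and the first Csrp3 start, and is not capitalised. These matches describe letters in a window and do not show binding.

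The brighter Irf4 probe set read 3761 ± 211 with intact Irf4 and 2792 ± 128 without (SD, n = 5), and the other read 425.8 ± 79.0 and 325.0 ± 91.4. No source used here says whether these probes fall in the deleted sequence, so they do not check the genotype. Signals are linear MAS5 intensities, scaled so that the trimmed mean of every array is 250. Array medians ran from 37.2 to 45.0. A control for 18S ribosomal RNA had a mean signal of 69.0 in Irf4+/+ and 207.1 in Irf4-/- arrays, with ranges of 58.1 to 104.9 and 126.2 to 289.0. Its part in the results below was not tested. The 40th percentile of all values, 26.1, serves below as a mark of dim signal.

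All 5 Irf4-/- arrays lay above all 5 Irf4+/+ arrays for each of the 7 genes, where the same held for 17.4% of all tested genes. The genes were chosen for this rise, so nothing is read from that count. Mean Irf4-/- signals ran from 62.4 for Ermap to 553.6 for Csrp3. In Irf4+/+ arrays the means ran from 2.34 for Calhm6 to 59.1 for Car2, and 4 of the 7 (Calhm6, Pecam1, Ermap and Fgl2) were under the 25.1 that the filter on dim probe sets required of the mean over all arrays. Those 4 passed the filter only through their Irf4-/- signal. Signals of different probe sets are not levels on a common scale, since each probe set binds with its own strength.

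**Figure D1:**
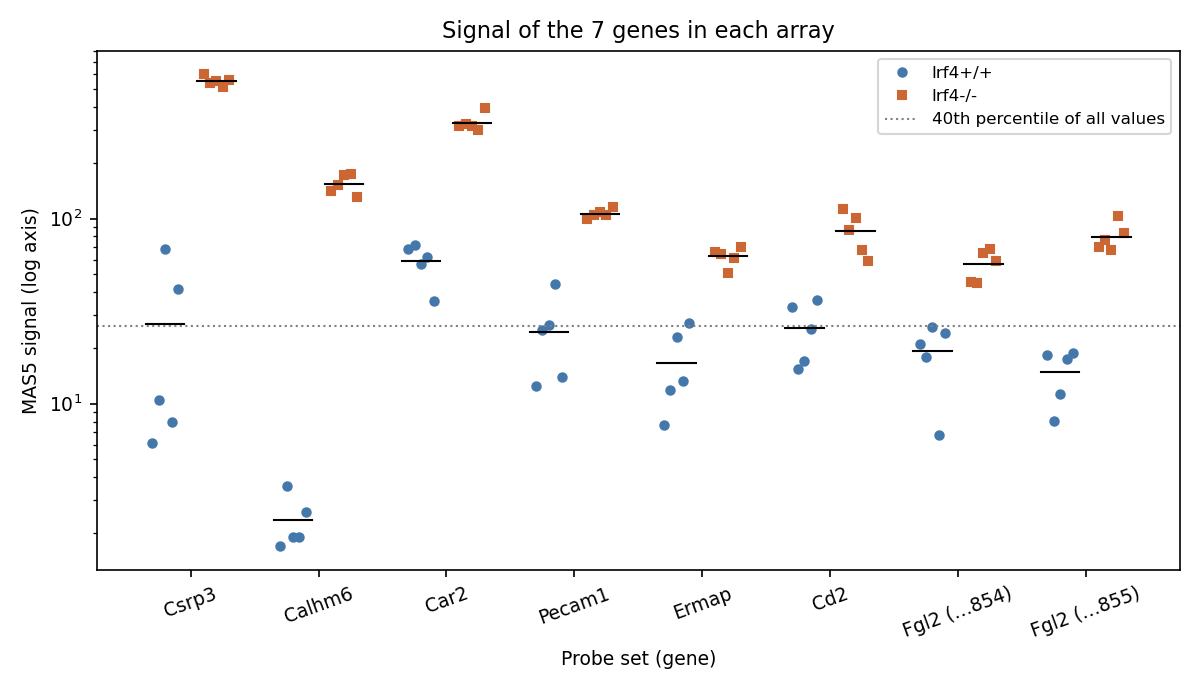
MAS5 signal on a log axis (vertical) of the 8 probe sets (horizontal) in each of 5 Irf4+/+ arrays (circles) and 5 Irf4-/- arrays (squares); short lines are group means and the dotted line is the 40th percentile of all values, 26.1. The Irf4-/- arrays sit above the Irf4+/+ arrays for every probe set, and most Irf4+/+ values lie near or under the dotted line except those of Car2.

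Csrp3 encodes muscle LIM protein, a cysteine-rich adaptor of 2 LIM domains at the Z-disc of heart and skeletal muscle. Its probe set (1460318_at) read 6.1, 10.4, 68.0, 8.0 and 41.8 in Irf4+/+ replicates 1 to 5. In Irf4-/- replicates 1 to 5 it read 601.2, 540.0, 551.1, 514.0 and 561.5. The Irf4-/- arrays were close together, while among the Irf4+/+ arrays replicates 3 and 5 stood above the other 3. The lowest Irf4-/- value was 7.56 times the highest Irf4+/+ value. The group means were 26.9 ± 27.3 and 553.6 ± 31.97 (SD, n = 5), a ratio of 20.6. On the log2 scale with a pseudocount of 7.9 the difference was 4.36 (SE 0.362), the 8th largest rise of 12253 genes. Among the 7 genes it had the widest Irf4+/+ spread, an SD of 1.09 on the log2 scale, where the median tested gene had 0.167.

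Calhm6, formerly Fam26f, belongs to the calcium homeostasis modulator family of large-pore channels and is induced by interferon in macrophages. Its probe set (1436576_at) read 1.7, 3.6, 1.9, 1.9 and 2.6 in the Irf4+/+ arrays. The Irf4-/- arrays read 141.4, 152.1, 170.9, 173.6 and 131.1. In Irf4+/+ arrays the signal stood at the bottom of the array, at a median percentile of 4.07, and in Irf4-/- arrays at the 69.5th. The means of 2.34 ± 0.783 and 153.8 ± 18.4 (SD, n = 5) had a ratio of 65.7, against a fold of 15.7 on the log2 scale with the pseudocount (difference 3.98, SE 0.209). The ratio is the less certain of these, because its lower term is within the noise of a MAS5 signal. By log2 difference it was 11th of all tested genes.

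Car2 encodes a cytosolic carbonic anhydrase, which interconverts carbon dioxide and bicarbonate and is abundant in red cells and osteoclasts. It was the one gene of the 7 whose Irf4+/+ mean was clearly above the dim mark. Its signals (1448752_at) were 68.3, 72.3, 56.5, 62.2 and 36.0 in Irf4+/+ arrays. They were 314.9, 323.1, 314.8, 301.1 and 396.5 in Irf4-/- arrays, where replicate 5 was highest and the others lay between 301.1 and 323.1. The means were 59.1 ± 14.2 and 330.1 ± 38.0 (SD, n = 5), and the log2 difference was 2.36 (SE 0.150), a 5.13-fold rise.

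Pecam1 encodes CD31, an adhesion receptor of endothelium, platelets and leukocytes that binds itself and recruits phosphatases through inhibitory motifs in its tail. Its probe set (1421287_a_at) read 12.4, 25.0, 26.5, 44.0 and 14.0 in Irf4+/+ and 99.0, 104.8, 108.6, 104.5 and 114.8 in Irf4-/- arrays. The Irf4-/- values had a coefficient of variation of 5.49%, the lowest of the 7 genes and below the 11.2% of the median tested gene. The means were 24.4 ± 12.7 and 106.3 ± 5.84 (SD, n = 5), and the log2 difference was 1.91 (SE 0.233), a 3.75-fold rise. The suffix of this probe set marks one that binds several transcripts of the gene, and no other probe set was at hand.

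Ermap encodes an erythroid membrane protein of the butyrophilin-like group, with an outer immunoglobulin domain and an inner B30.2 domain. Its probe set (1418909_at) read 7.7, 11.8, 22.8, 13.3 and 27.4 in Irf4+/+ and 66.1, 64.3, 50.7, 60.9 and 70.2 in Irf4-/- arrays. The Irf4+/+ mean was under the dim mark, and the Irf4-/- values lay between the 54.3rd and 58.4th percentile of their arrays. The means were 16.6 ± 8.19 and 62.4 ± 7.37 (SD, n = 5), and the log2 difference was 1.58 (SE 0.256), a 2.99-fold rise.

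Cd2 encodes an adhesion and costimulatory receptor of T cells and natural killer cells, which mouse B cells also carry. Its probe set (1418770_at) read 33.4, 15.4, 16.9, 25.2 and 36.4 in Irf4+/+ and 112.6, 86.9, 100.5, 67.5 and 58.9 in Irf4-/- arrays. The groups came closest here, with the lowest Irf4-/- value 1.62 times the highest Irf4+/+ value. Its Irf4-/- arrays also varied most among the 7 genes, with a coefficient of variation of 26.2%. The means were 25.5 ± 9.45 and 85.3 ± 22.3 (SD, n = 5), and the difference was 2.82-fold (SE 0.238 on the log2 scale).

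Fgl2 encodes a fibrinogen-like protein that acts as a membrane prothrombinase on macrophages and, when secreted, dampens immune responses through Fc gamma receptors. Its probe set with the brighter mean over all arrays (1421855_at) read 18.3, 8.1, 11.2, 17.5 and 18.7 in Irf4+/+ and 70.0, 76.1, 67.6, 102.8 and 83.0 in Irf4-/- arrays. The other (1421854_at) read 21.0, 17.9, 25.8, 6.8 and 24.2 in Irf4+/+ and 45.4, 45.0, 65.0, 68.7 and 59.2 in Irf4-/- arrays. Both showed groups that did not overlap, and replicate 4 was highest among the Irf4-/- arrays on both. The means were 14.8 ± 4.81 and 79.9 ± 14.1 on the brighter and 19.1 ± 7.54 and 56.7 ± 10.997 on the other (SD, n = 5). The first was thus the dimmer in Irf4+/+ arrays. It stands for Fgl2 in the comparisons below through its Irf4-/- signal, and it is the one with the larger rise. The log2 differences were 1.97 (SE 0.226) and 1.30 (SE 0.263), or 3.91-fold and 2.45-fold. With the mean of both probe sets the difference was 1.63.

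Among the Irf4-/- arrays, replicate 5 held the highest value of 3 genes, replicates 1 and 4 that of 2 each, and replicates 2 and 3 that of none. With any 1 array left out, the log2 difference ran from 4.11 to 4.72 for Csrp3 and from 3.93 to 4.03 for Calhm6. The pseudocount mattered more. With 1 or 32 added in place of 7.9, the difference of Calhm6 was 5.56 or 2.43, that of Csrp3 4.91 or 3.43 and that of Car2 2.49 or 2.00. For Pecam1 these values were 2.22 and 1.32, for Fgl2 2.41 and 1.26, for Cd2 1.74 and 1.02 and for Ermap 1.97 and 0.97. The order of Csrp3 and Calhm6 thus turns with the pseudocount.

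**Figure D2:**
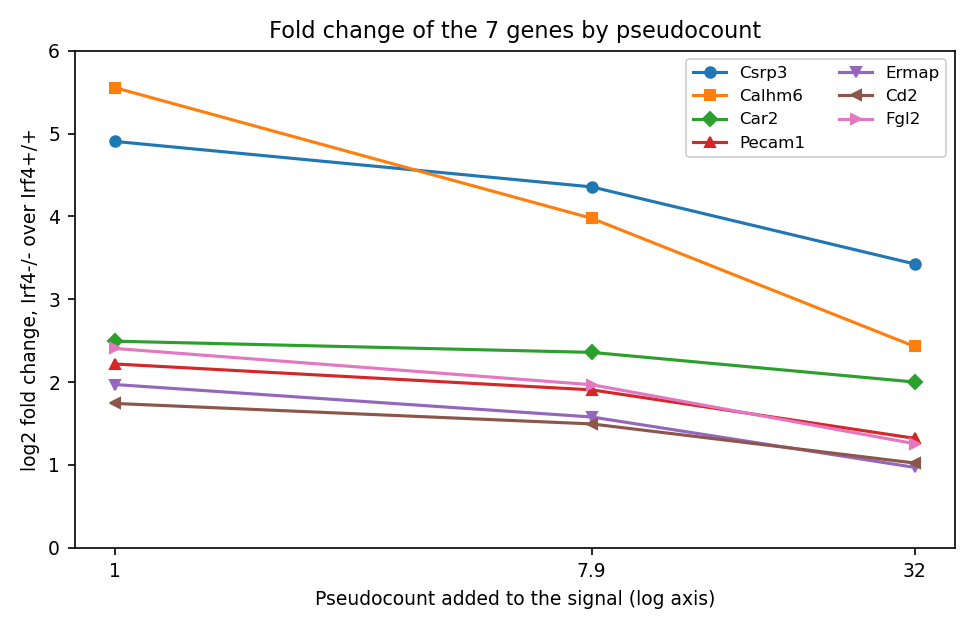
The log2 fold change of Irf4-/- over Irf4+/+ (vertical) for the 7 genes, as lines, with 1, 7.9 or 32 added to the signal before the log (horizontal, log axis). All lines stay above 0, that of Calhm6 falls most, from 5.56 to 2.43, and that of Car2 least, from 2.49 to 2.00.

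Relatives of these genes were examined in 7 lists, which hold family members, partners and genes of the same pathways. The pooled counts therefore do not describe families alone. Of 128 listed genes 79 were tested. In limma at an adjusted p under 0.05, 28 were called higher in Irf4-/- samples (35.4%) and 14 lower (17.7%), where 23.3% and 23.9% of all tested genes were. The median log2 difference of the relatives was 0.23, and that of all tested genes was 0.00. Directions were mixed within most lists.

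**Figure D3:**
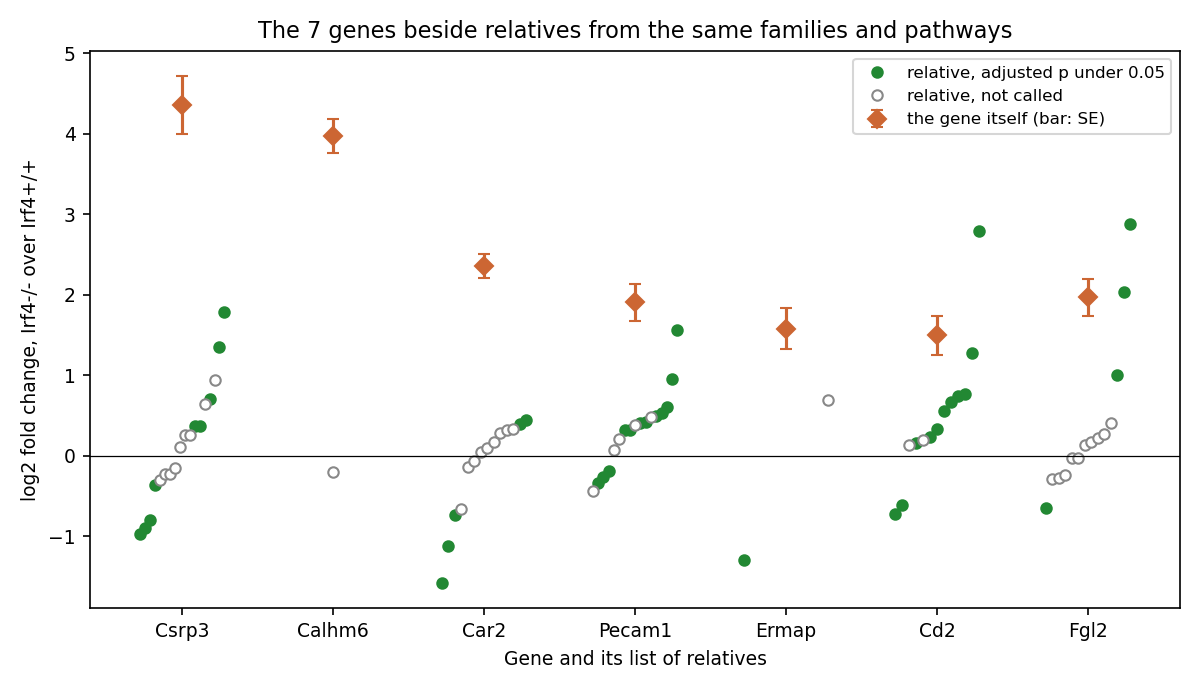
The log2 fold change of Irf4-/- over Irf4+/+ (vertical) of each of the 7 genes (diamonds, bars are SE) beside its list of relatives (circles, filled where the adjusted p is under 0.05). Diamonds of Csrp3, Calhm6, Car2, Pecam1 and Ermap lie above all their tested relatives, while Cd244a in the Cd2 list and Fcgr3 and F2r in the Fgl2 list lie above the diamond. The 7 genes were chosen for their rise, so nothing is read from the place of the diamonds. Calhm6 has 1 tested relative and Ermap 2.

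Around Csrp3, 5 of 18 LIM and Z-disc relatives were called higher, 4 lower and 9 not called (median 0.18). Its closest paralogues differed in sign. Csrp1 rose 1.29-fold from 521.8 ± 39.8 to 675.7 ± 53.4 (SD, n = 5; limma adjusted p = 0.000521), and Csrp2 fell from 132.9 ± 21.1 to 100.9 ± 4.78 (adjusted p = 0.0216). Pdlim2, a PDZ-LIM protein that promotes turnover of nuclear factors, rose 3.45-fold, and Lmo2, a LIM-only transcription cofactor, rose 2.56-fold. Pdlim1, Lmo4 and Crip2 fell 1.73-fold, 1.87-fold and 1.97-fold (adjusted p at most 0.000274). The titin cap Tcap, a known partner of muscle LIM protein, had signals of 54.3 ± 11.5 and 58.6 ± 10.9 and was not called.

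In the channel family of Calhm6, Calhm2 was the one relative bright enough to test, and it was not called (236.8 ± 41.5 and 203.2 ± 17.2, limma adjusted p = 0.173). Calhm4 and Calhm5 were dim on the array. Calhm6 is also known as an interferon-inducible gene, and a list of 30 such genes had 25 tested. Of these 23 were called higher (92.0%) and 2 were not called (median 1.56), where 23.3% of all tested genes were called higher. Rtp4 rose 27.9-fold, Iigp1 25.1-fold, Oas1a 12.7-fold and Gbp2 9.49-fold, and these 4 were chosen by their size after their values were seen. Rtp4, Oasl2 and Ifit1 passed the filter on dim probe sets only through their Irf4-/- signal. The part of interferon signalling in the Calhm6 signal was not tested.

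Among carbonic anhydrases and acid-base transporters 2 of 14 rose, 3 fell and 9 were not called (median 0.07). Car13, another cytosolic form whose gene lies 2 tested genes from Car2, rose 1.36-fold from 160.3 ± 33.2 to 218.8 ± 25.0 (limma adjusted p = 0.00899). Car12, a membrane form with its active site outside the cell, fell from 51.5 ± 8.28 to 19.6 ± 5.62 (adjusted p = 0.000824). Car1, the other main red cell form, was dim, and Car3, which lies next to Car2, was not called (28.4 ± 12.3 and 36.8 ± 17.8). The lactate transporters Slc16a1 and Slc16a3 fell 2.98-fold and 1.67-fold. Slc4a8, a bicarbonate transporter, rose 1.31-fold (adjusted p = 0.0380). That call was lost without Irf4+/+ replicate 2, 3, 4 or 5 or Irf4-/- replicate 1, 3 or 4, and also under quantile normalization, median centring or no filter, and with the mean of probe sets. Its limma adjusted p ran from 0.0194 to 0.322 over all settings.

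Of 17 tested partners and adhesion relatives of Pecam1, 9 rose, 3 fell and 5 were not called (median 0.38). The lipid phosphatase Inpp5d, which inhibitory receptors can recruit, rose 1.93-fold from 1272 ± 112 to 2462 ± 148 (limma adjusted p = 4.52e-09). Plcg2, a phospholipase of B cell receptor signalling, rose 1.41-fold. Of the 2 phosphatases that bind Pecam1 itself, Ptpn6 rose 1.52-fold and Ptpn11 fell 1.20-fold. With the mean of its probe sets Ptpn11 was not called (adjusted p = 0.196). Esam, a junctional adhesion protein, rose 2.95-fold from 280.5 ± 63.6 to 835.9 ± 139.1. Icam2 fell 1.27-fold. Itgav, the integrin chain that Pecam1 has been reported to bind with Itgb3, fell 1.14-fold (adjusted p = 0.0335). The Itgav call was lost without Irf4+/+ replicate 1, 2 or 4 or Irf4-/- replicate 1, 3 or 5 (adjusted p from 0.00717 to 0.576 over all settings). It was also lost under quantile normalization, with no variance trend and with the mean of its probe sets, where the log2 difference was -0.076.

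The Ermap list, of butyrophilins and other receptors, gave 2 tested genes. Btla, an inhibitory receptor of lymphocytes and not a butyrophilin, fell 2.45-fold from 4770 ± 302.5 to 1938 ± 81.2 (limma adjusted p = 1.24e-11). The butyrophilin-like Btnl2 was not called (16.7 ± 7.08 and 34.5 ± 21.0). Btn1a1, Btnl9, Btnl10 and Mog were dim.

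The Cd2 list moved most often, with 9 of 13 called higher, 2 lower and 2 not called (median 0.33). Cd48, the ligand of Cd2 in mice, fell 1.53-fold from 6100 ± 521.6 to 3978 ± 171.7 (limma adjusted p = 3.81e-07). Cd244a, the other receptor for Cd48 and one of natural killer cells, rose 6.91-fold from 8.18 ± 4.38 to 100.7 ± 16.5. It passed the filter on dim probe sets only through its Irf4-/- signal. The adaptor Nck2 rose 2.42-fold and the kinase Fyn 1.70-fold, while Slamf7, a related receptor, fell 1.65-fold. The adaptors that bear the gene's name, Cd2ap and Cd2bp2, were not called (adjusted p = 0.204 and 0.0727).

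Of the 14 tested genes around Fgl2, 3 were called higher, 1 was called lower and 10 were not called (median 0.15). The fibrinogen chains Fga, Fgb and Fgg and the paralogue Fgl1 were dim in these cells. The Fc gamma receptor Fcgr3 rose 7.36-fold from 6.5 ± 4.90 to 94.1 ± 14.7 (limma adjusted p = 2.48e-07), whereas Fcgr2b, the inhibitory receptor that B cells carry and that Fgl2 also binds, was not called (352.1 ± 36.1 and 385.3 ± 36.8, adjusted p = 0.257). F2r, the thrombin receptor, rose 4.10-fold from 121.4 ± 15.4 to 519.5 ± 27.8, and Plaur, the urokinase receptor, rose 2.00-fold. Angptl6, with a fibrinogen-like domain, fell 1.57-fold. Fcgr3 passed the filter on dim probe sets only through its Irf4-/- signal.

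Markers of the cell types these genes are known from were measured in the same arrays. Depletion of non-B cells leaves some others behind, and in bulk RNA more cells of a type cannot be told apart from more RNA per cell. B cell markers were bright, and their summed signal was 31615 to 35296 in Irf4+/+ and 59021 to 65439 in Irf4-/- arrays. All 11 tested rose, among them Ms4a1, Cd79b, Fcer2a, Bank1 and Cd72. Across the 9 lists for other cells, 29 of 66 tested genes were called higher (43.9%) and 3 lower (4.55%), against 23.3% and 23.9% of all tested genes. Several of the 29 passed the filter on dim probe sets only through their Irf4-/- signal, and these are named below. Some genes stand in more than 1 list, such as Esam among the partners of Pecam1 and Irf7 in the interferon list.

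**Figure D4:**
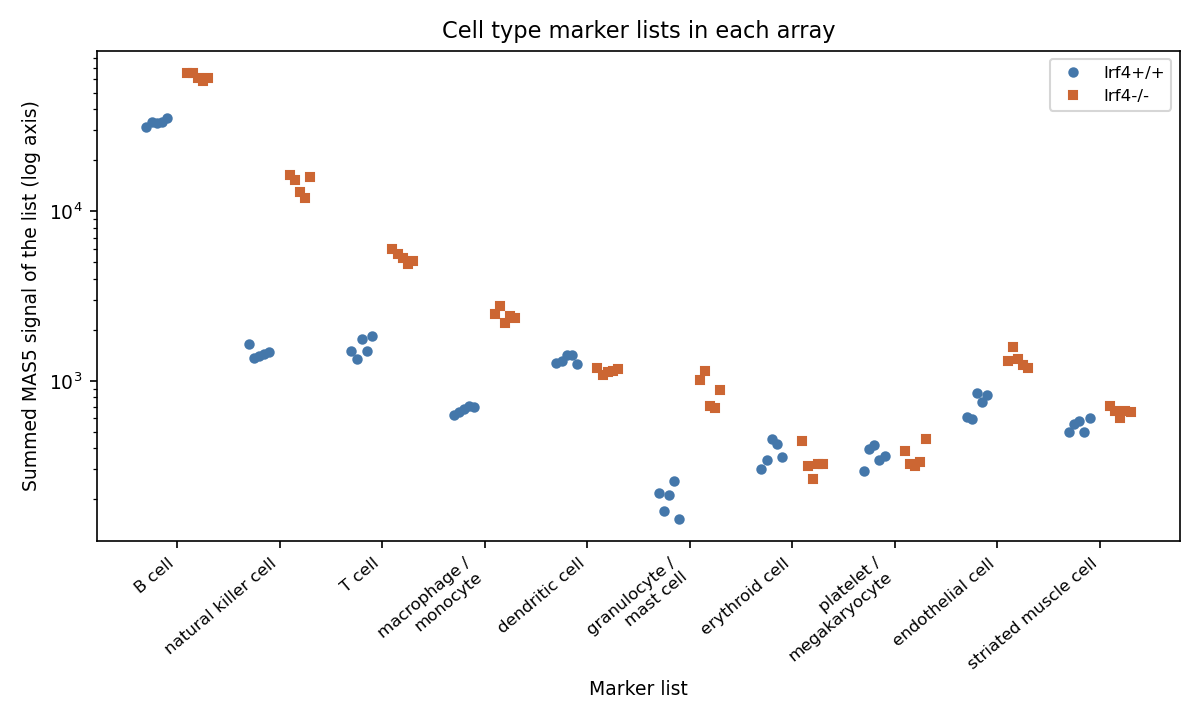
Summed MAS5 signal (vertical, log axis) of 10 cell type marker lists (horizontal) in each of 5 Irf4+/+ arrays (circles) and 5 Irf4-/- arrays (squares). B cell, natural killer, T cell, macrophage, granulocyte, endothelial and, narrowly, muscle lists are higher in all Irf4-/- arrays. The dendritic cell list is lower in all of them, and erythroid and platelet lists overlap between the genotypes.

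Striated muscle markers were set beside Csrp3. Of 17 with a probe set 6 were dim, 11 were tested and 2 (18.2%) were called higher, Myh7 from 40.5 ± 13.4 to 85.7 ± 10.3 (limma adjusted p = 0.00112) and Ttn from 62.8 ± 16.8 to 110.0 ± 17.7. Ttn turned to a log2 difference of -0.19 with shared probe sets left out, which leaves 1 gene called. Shared here means any probe set with the suffix _a_at, _s_at or _x_at. That of Ttn ends in _a_at, which marks several transcripts of the same gene, and another probe set then stood for Ttn. The summed list was 498.2 to 607.4 in Irf4+/+ and 607.5 to 711.6 in Irf4-/- arrays. Cardiac Myh6, Tnni3, Tnnt2, Myl2 and Myl7 and the myogenic factor Myog were among the 6 dim genes.

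Endothelial markers, set beside Pecam1, had 1 of 7 tested genes called higher (14.3%), which was Esam. Without Irf4+/+ replicate 3, or with no filter on dim probe sets, the count was 2. The sum rose from 593.2 to 843.4 in Irf4+/+ to 1187 to 1578 in Irf4-/- arrays, and Esam made up most of that difference. The defining markers Cdh5, Tek, Tie1, Vwf, Emcn, Plvap, Robo4 and Sox17 were dim by their mean over all arrays. Tie1 had means of 3.52 and 1.68, and Cdh5 14.0 ± 10.8 and 31.9 ± 9.95 (SD, n = 5). Eng and Egfl7, the next brightest, were not called. Platelet markers, the other cells rich in Pecam1, had 0 of 5 tested genes called in limma and 0 at an unadjusted p under 0.05, with sums of 295.4 to 417.0 and 315.6 to 452.2.

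Erythroid markers, set beside Ermap and Car2, had 0 of 4 tested genes called in limma and 1 at an unadjusted p under 0.05. Without Irf4-/- replicate 1, 1 gene was called lower. Their sum was 300.3 to 452.2 in Irf4+/+ and 264.3 to 441.5 in Irf4-/- arrays. The haem synthesis enzyme Alas2 had means of 2.82 and 1.96, the alpha globin gene Hba-a1 27.0 and 21.8 and the erythroid factor Klf1 19.2 and 20.4. Epor, Gata1, Add2 and Tmod1 were not called. Alas2 and Klf1 were thus dim in both genotypes.

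**Figure D5:**
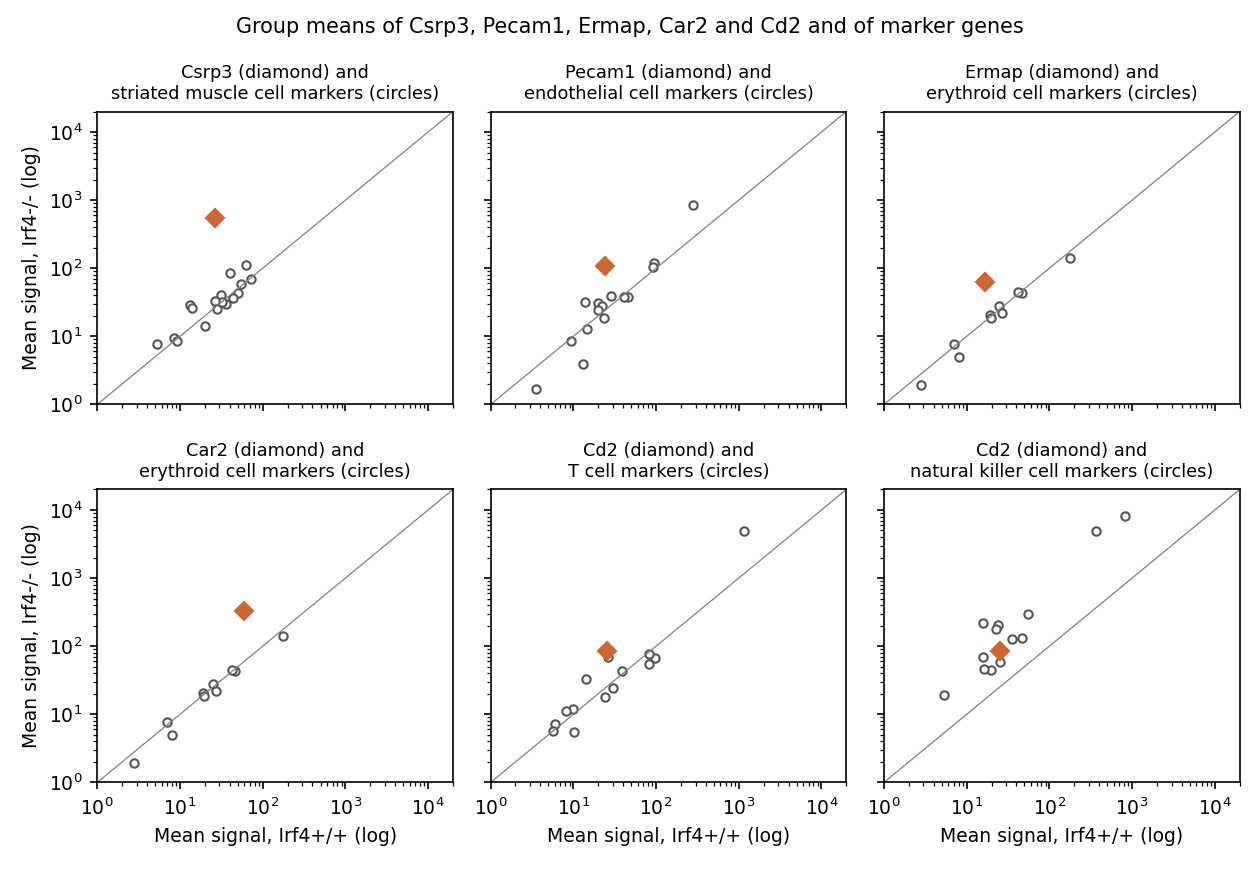
Mean signal in Irf4+/+ (horizontal, log axis) against mean signal in Irf4-/- samples (vertical, log axis) for 5 of the genes (diamonds; n = 5 arrays each) and the marker genes of a cell type (circles), with the line of equal signal. Csrp3, Pecam1, Ermap and Car2, and Cd2 in the T cell panel, lie above the line away from most circles. In the natural killer panel the circles lie above the line together with Cd2. The 5 genes were chosen for their rise, so nothing is read from the diamonds being above the line.

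Lymphoid and myeloid markers were set beside Cd2, Calhm6 and Fgl2. All 12 tested natural killer markers were called higher (median 2.14), with Gzma from 818.6 ± 105.8 to 8256 ± 1380, Gzmb from 362.0 ± 51.6 to 4868 ± 533.4 and Il2rb from 15.8 ± 6.99 to 221.6 ± 32.8. Il2rb, Nkg7, Klrd1, Klre1, Ncr1 and Klra8 had Irf4+/+ means under the filter's 25.1. These were tested only because of their Irf4-/- signal, so the count of 12 is partly set by the filter. Prf1 rose 4.91-fold, and by 0.41 on the log2 scale with shared probe sets left out, where it was not called. Its probe set also ends in _a_at, and another then stood for Prf1. The summed list was 1360 to 1640 in Irf4+/+ and 11977 to 16361 in Irf4-/- arrays. In Irf4-/- replicate 1 both Cd2 (112.6) and this sum (16361) were highest. In replicate 5 Cd2 was lowest (58.9) while the sum was 15967, below replicate 1 alone. The part of natural killer cells in the Cd2 signal was not tested.

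Of 7 tested T cell markers 2 were called higher (28.6%), 1 was called lower (14.3%) and 4 (Zap70, Lat, Cd8a and Trat1) were not called, with a median of -0.07. The defining genes Cd3d, Cd3e, Cd3g and Cd4 were dim in both genotypes, with means between 5.68 and 12.0. Thy1, which activated mouse B cells can also express with IL-4, rose 4.26-fold from 1153 ± 134.6 to 4932 ± 455.5, and Cd5 rose 2.53-fold, while Cd28 fell 1.44-fold. The T cell sum of 1349 to 1833 and 4864 to 5962 was mostly Thy1.

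Macrophage and monocyte markers were called higher for 6 of 9 tested genes (66.7%; median 1.85), with sums of 630.0 to 713.2 and 2199 to 2764. Chil3 rose from 4.66 ± 3.85 to 364.8 ± 74.6, Lyz1 from 6.72 ± 3.74 to 249.4 ± 79.2, Adgre1 from 153.2 ± 21.0 to 610.9 ± 30.6, and Mpeg1 and Cd68 rose 3.59-fold and 2.60-fold. The defining receptor genes Csf1r, Fcgr1 and Ccr2 were not called, and C1qa, C1qb, C1qc, Mertk, Marco, Itgam, Cd14 and Cx3cr1 were dim. Granulocyte and mast cell markers were called higher for 3 of 5 tested genes, S100a8, S100a9 and Ngp, with sums of 154.0 to 257.1 and 690.7 to 1144. Mpo and Elane were not called, and Camp, Ltf, Csf3r, Mcpt8, Cpa3 and Fcer1a were dim. Chil3, Lyz1, S100a8 and S100a9 had Irf4+/+ means under the filter's 25.1 and passed it only through their Irf4-/- signal. Dendritic cell markers had 3 of 6 called higher and 2 lower, with Irf7 up 3.71-fold and Flt3 down 7.14-fold. Their sum was lower in Irf4-/- arrays, at 1253.7 to 1428.1 in Irf4+/+ and 1083.3 to 1194.5 in Irf4-/-. The mean of Flt3 went from 417.3 to 53.2, a larger drop than that of the sum. Fgl2 was highest in Irf4-/- replicate 4 and the macrophage sum in replicate 2 (2764). The part of myeloid cells in the Calhm6 and Fgl2 signals was not tested.

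Genes with the most similar profiles were sought among all tested genes, by the root mean square difference over the 10 arrays of log2 values after each gene's Irf4+/+ mean was taken off. This distance includes the size of the genotype difference, for which the 7 genes were chosen. Near genes are thus largely those with a rise of like size, and no shared regulation is read from them. For Csrp3 the nearest were Hip1 (0.635), Ms4a4c (0.684) and Gzmd (0.726). These distances were large because its Irf4+/+ arrays scattered. For Calhm6 they were Hip1 (0.188), Fcrls (0.190) and Pld4 (0.285), so the endocytic adaptor gene Hip1, at 49.6 ± 11.8 and 853.1 ± 51.0, was nearest to both. Car2 was nearest to Rai14 (0.189), the exchange factor gene Fgd2 (0.190) and Emp2 (0.198). Pecam1 was nearest to Trim2 (0.249), Slfn2 (0.264) and the peptidase gene Dpp4 (0.286). Ermap was nearest to the kinase gene Map2k6 (0.181), H1f10 (0.194) and Selenow (0.227). Cd2 was nearest to Eva1b (0.245), Rnf183 (0.256) and Kif26b (0.257). Fgl2 was nearest to Adssl1 (0.190), the agouti gene a (0.214) and the phosphatase gene Ubash3b (0.215). Among the 7 genes themselves the closest pair was Car2 and Pecam1 (0.474) and the farthest Csrp3 and Cd2 (2.18).

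Genes next to each of the 7 on the chromosome were compared as well, a comparison added after the fit was seen. The 3 nearest tested genes on each side in the RefSeq order gave 42 neighbours on chromosomes 3, 4, 5, 7, 10 and 11. In limma 10 of them were called higher (23.8%) and 8 lower (19.0%), near the shares of all tested genes (23.3% and 23.9%). None differed by 2-fold or more on the log2 scale with 7.9 added. With 1 added, Dse differed by 1.01 on that scale, just over 2-fold. The neighbours are named to describe the surroundings of each gene. Beside Csrp3, Zdhhc13 rose 1.37-fold and the replication regulator E2f8 fell from 1001 ± 122.7 to 591.2 ± 52.3 (adjusted p = 1.47e-06). Beside Calhm6, Zup1 rose from 651.6 ± 34.2 to 933.7 ± 66.0 and Dse, an epimerase of dermatan sulphate, from 29.5 ± 4.04 to 61.7 ± 16.1 (adjusted p = 0.00272). Flanking Car2, Mtfr1 fell from 846.8 ± 63.6 to 535.1 ± 88.2. Near Ermap, Svbp and P3h1 rose 1.45-fold and 1.55-fold and the glucose transporter gene Slc2a1 fell 1.23-fold. Close to Cd2, Ttf2 fell and Igsf3 rose, each by under 1.5-fold. Next to Pecam1, Milr1 and Tex2 were not called. Close to Fgl2, Fam185a fell from 228.8 ± 18.7 to 139.0 ± 24.5 and Gsap was not called.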

How the data were processed

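The deposited table holds a linear signal intensity per probe set, made by the authors with MAS5, per the submitters' processing notes (settings not stated). MAS5 subtracts mismatch from perfect-match probes, which makes dim signals noisy. Precision is limited by having 5 arrays for each genotype. Groups come from the sample titles. Probe sets with 1 symbol (34945; 932 have several) were named through the platform annotation, brought up to date by gene ID with RefSeq (GRCm38.p6).

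Values became log2(signal + 7.9), 7.9 being the 20th percentile of all values. A probe set was kept when its mean over the 10 arrays reached the 40th percentile, and the brightest per gene was used, leaving 12253 of 18193 genes (5940 have only dim probe sets). Genotype was fitted in limma 3.58.1 (eBayes with trend, R 4.3.3), with Benjamini-Hochberg adjustment over all genes. Calls required an adjusted p under 0.05; 6481 had an unadjusted p under 0.05. Folds in the text are 2 to the power of the log2 difference unless called a ratio of means. The fit was tested on simulated data.

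The 7 genes, the lists, the tests and the alternatives were chosen with earlier results of these data known. Named relatives are the 3 called genes of smallest p per direction and list; named markers are up to 3 brightest and 2 most changed per list. Other genes named, such as the dim ones, neighbours, Tcap, Csrp2, Ptpn6, Car1, Car3 and the uncalled genes, were picked with their values known. Alternatives were other pseudocounts, filters, scalings, probe set rules and variance models, the replicate number as a block and each array left out.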

Additional observations from a re-analysis of the deposited data

Results flagged for a closer look

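Gaps between the lowest or highest array and its nearest neighbour were compared with the group's whole range for the 8 probe sets and the 10 marker sums in each genotype, 36 groups of 5 in all. Dixon's critical value of 0.71 was passed once, where chance passes about 1 group in 20. Car2 read 396.5 in Irf4-/- replicate 5, above the other 4 Irf4-/- arrays at 301.1 to 323.1. Without that array the Car2 log2 difference was 2.29, against 2.36 with it.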

How the results depend on the processing

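Under the 21 alternatives the pooled counts of called genes stayed within 1.5 times the values given: 2328 to 2960 higher and 2446 to 3270 lower for all genes, 23 to 30 and 11 to 16 for the relatives, 21 to 32 and 2 to 4 for the markers of other cells, and 16 to 23 higher for the interferon list. Single marker lists with few calls moved by more: endothelial 1 to 2 higher, muscle 2 to 1 higher (with the 60th percentile filter, the mean of probe sets or no shared probe sets), T cell 2 to 1 higher and 1 to 0 lower (60th percentile filter), and erythroid 0 to 1 lower (quantile normalization, median centring or without Irf4-/- replicate 1). All 7 genes kept their direction in every alternative in which they were present. The 60th percentile filter kept 3 of them (Csrp3, Calhm6 and Car2), and leaving out shared probe sets dropped Pecam1. Of 73 named called genes, 65 kept call and direction throughout and 8 lost the call at least once. Ttn turned to -0.19 without shared probe sets. Polg2, Trim45 and Man1a2, called neighbours, also lost theirs: Trim45 without Irf4+/+ replicate 1 or 5 or Irf4-/- replicate 1 or 3, Man1a2 without Irf4+/+ replicate 1, 2 or 4 or Irf4-/- replicate 2 or 3. Same-numbered arrays did not deviate together (correlations of -0.0404 to 0.0507), so the shared numbers were not taken as pairs. With the replicate number as a block, 2831 genes were called higher and 2884 lower, and 28 and 14 relatives; of the named genes, Slc4a8 alone lost its call under the block (limma adjusted p = 0.0611).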
